A study of Homo sapiens with 2 samples.

Results

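Ribosome biogenesis and RNA polymerase I genes were followed as a set of 54 genes, chosen by their gene symbol in the platform annotation, out of 20046 named genes with a probe. A probe was found for 51 of them. Of these, 49 were detected on 1 or both arrays, 46 of them on both; for all named genes the numbers were 9410 and 7834. WDR43, GNL3 and EBNA1BP2 had no probe in the annotation used here, and no probe of UTP20 or NPM1 was detected on either array. For NPM1 the annotation gave 1 probe, so a lack of its RNA is not shown.

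RNA came from cells labelled Jurkat, a human T cell leukaemia line, kept in RPMI 1640 with fetal bovine serum. The control culture received phosphate-buffered saline (PBS) and the treated culture received Me6TREN, a branched polyamine that chelates metals, each for 24 hours. The dose is not given in the sources used here. Each culture was measured on 1 Illumina HT12 array, so no value has a replicate, a standard deviation or a test, and every difference is one between 2 arrays.

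The cell type label was checked against marker genes. Of 10 T lineage markers with a probe, 6 passed detection on the control array, the Me6TREN array or both. CD247 alone passed on both arrays, and CD3E passed on neither. By contrast, 5 of 6 B lineage markers (CD79A, CD79B, MS4A1, BLK and CD22) were detected on both. Summed signals were 4158 and 3387 for the T lineage markers and 82010 and 80206 for the B lineage markers on the control and Me6TREN arrays. The data thus go against the T cell label on both arrays alike. Of the myeloid, erythroid, fibroblast and epithelial markers, CD68 and HBB alone were detected on both arrays. The part of other cells in the results on ribosome assembly genes was not tested. The arrays detected 32.5% and 28.9% of 47322 probes.

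Ribosomes are assembled in the nucleolus. RNA polymerase I transcribes the long ribosomal RNA precursor, small nucleolar ribonucleoproteins (snoRNPs) modify it and guide its cleavage, and separate sets of assembly factors then build the small and the large subunit. Many of these genes are known targets of the transcription factor MYC, which binds the E-box CACGTG, and they are highly expressed in dividing lymphoid cells.

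The E-box was therefore looked up in RefSeq promoter windows (GRCh38.p14), which run from 250 bases before to 50 after a gene's start. A window was found for 47 of the 54 members, and 20 of them (42.6%) held CACGTG, which reads the same on both strands. Among all genes with a window the share was 8.8%. Of the 42 measured members with a window 16 (38.1%) held it, against 13.2% of measured genes. The letters CCGGAAG, the core of sites bound by ETS factors, were found on either strand in 18 of the 42 (42.9%), against 24.2% of measured genes. GCATGCGC, part of the site of NRF1, was found on either strand in 4 of the 42 (9.5%), against 7.1%. None of the 3 motifs holds another. Of 35116 windows, 7.3%, 10.3% and 3.1% held the E-box, the ETS core and the NRF1 letters. A match describes the letters only, and binding was not measured.

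The E-boxes are shown for 6 of the 7 members that had one and were at least 1.5-fold lower with Me6TREN, each with 10 bases on either side, 5′ to 3′ on the strand of the gene and with the E-box in capitals.
RRP9: gttcagctgcCACGTGagttctgcgg
UTP4: agcgcgcgcgCACGTGgggccggggc
LTV1: cctggggctgCACGTGtggtgaggcc
PES1: cttggcagggCACGTGcgggaggaag
MRTO4: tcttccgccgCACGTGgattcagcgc
DDX21: ccgggtgtccCACGTGgtccccggcg
The sites lie at chr3:51941894-51941919 (minus strand) for RRP9, chr16:69132623-69132648 (plus) for UTP4, chr6:143843356-143843381 (plus) for LTV1, chr22:30591882-30591907 (minus) for PES1, chr1:19251809-19251834 (plus) for MRTO4 and chr10:68956606-68956631 (plus) for DDX21. The seventh, UTP14A, has its E-box near the far end of the window, 241 bases before the start, and is not shown.

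For comparison, 4 members that held the E-box but were not 1.5-fold lower, picked as examples after their values were seen, are shown in the same way.
FBL: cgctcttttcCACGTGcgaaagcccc
NOP10: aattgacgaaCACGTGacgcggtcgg
BYSL: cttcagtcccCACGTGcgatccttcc
GNL2: acgtcgtgcaCACGTGgtccggcgtg
They lie at chr19:39846358-39846383 (minus) for FBL, chr15:34343132-34343157 (minus) for NOP10, chr6:41921517-41921542 (plus) for BYSL and chr1:37595919-37595944 (minus) for GNL2. Of 18 members with an E-box that had the full flanks, 17 had it within 50 bases of the start. Where several boxes had full flanks, the one nearest to a start was taken. The exception was EBNA1BP2, which also held a box 43 bases after the start in another window. That box was left out because its flank ran past the end of the window. The 18 include UTP20, WDR43, GNL3 and EBNA1BP2, which were not measured. The same share over all genes with an E-box was not computed. An E-box was present in 7 of the 16 members with a window that were at least 1.5-fold lower and in 9 of the 26 that were not, so the letters were found on both sides of that threshold.

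NOP56 had the lowest ratio of the members detected on both arrays and none of the 3 motifs in its window. Its 250 bases before the start (chr20:2652382-2652631, plus strand) are shown as an example of a lower member without them.
NOP56: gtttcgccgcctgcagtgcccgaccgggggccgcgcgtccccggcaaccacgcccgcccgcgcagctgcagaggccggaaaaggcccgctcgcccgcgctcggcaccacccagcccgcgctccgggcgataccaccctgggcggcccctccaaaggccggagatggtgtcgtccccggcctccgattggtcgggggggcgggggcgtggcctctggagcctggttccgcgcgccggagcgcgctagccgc

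A signal and a ratio are given for each gene. A signal is the brightness of its brightest detected probe as the authors deposited it, with the background still in it and not adjusted between arrays. A ratio is Me6TREN over control after background correction and quantile normalization with limma's neqc, on the log2 scale or as a fold. Detection required a detection p-value under 0.01, and the dimmest probes that met it had signals of 333.4 (control) and 350.5 (Me6TREN). A gene detected on 1 array only has a bound, written as at least N-fold. Genes were counted as higher or lower at 1.5-fold. In bulk RNA, fewer cells of a kind and less RNA per cell cannot be told apart.

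On the Me6TREN array many ribosome assembly genes had lower ratios, and after normalization none was at least 1.5-fold higher. At 1.5-fold, 19 of the 49 measured members (38.8%) were lower and 0 higher. Over all 9410 measured genes, 21.9% were at least 1.5-fold lower and 16.5% at least 1.5-fold higher. At 2-fold, 8 members were lower and 0 higher, against 9.94% and 6.74% of all measured genes. The median log2 ratio was −0.29 over the members and −0.12 over all measured genes, and 35 of the 49 lay below the latter. These medians use the ratios as measured, and with genes detected on 1 array at their bound they were −0.29 and −0.02. Over the 46 members detected on both arrays, 16 (34.8%) were lower, against 21.7% of all such genes. The members were mostly bright, and among the 30 in the top tertile of measured genes by mean signal 11 (36.7%) were lower, against 17.4% of all genes in that tertile.

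As deposited, before any scaling, 46 of the 49 members (93.9%) had a lower signal on the Me6TREN array, but so had 78.7% of all measured genes. The 3 exceptions were FBL, NOP10 and POLR1D. How many members are counted as lower therefore depends on how the arrays are scaled, and with it the count over all genes. With median centring over probes detected on both arrays, 14 members were lower and 4 higher, and 18.2% of all genes were lower and 24.9% higher. With the authors' series matrix values, 28 members were lower and 1 higher, against 42.3% and 6.8% of all genes. The median log2 ratio of all genes moved with the scaling from −0.61 to 0.07. The median of the members minus that of all genes, from ratios as measured, was −0.17 as reported and ran from −0.24 to −0.15 under the 10 alternatives.

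**Figure D1:**
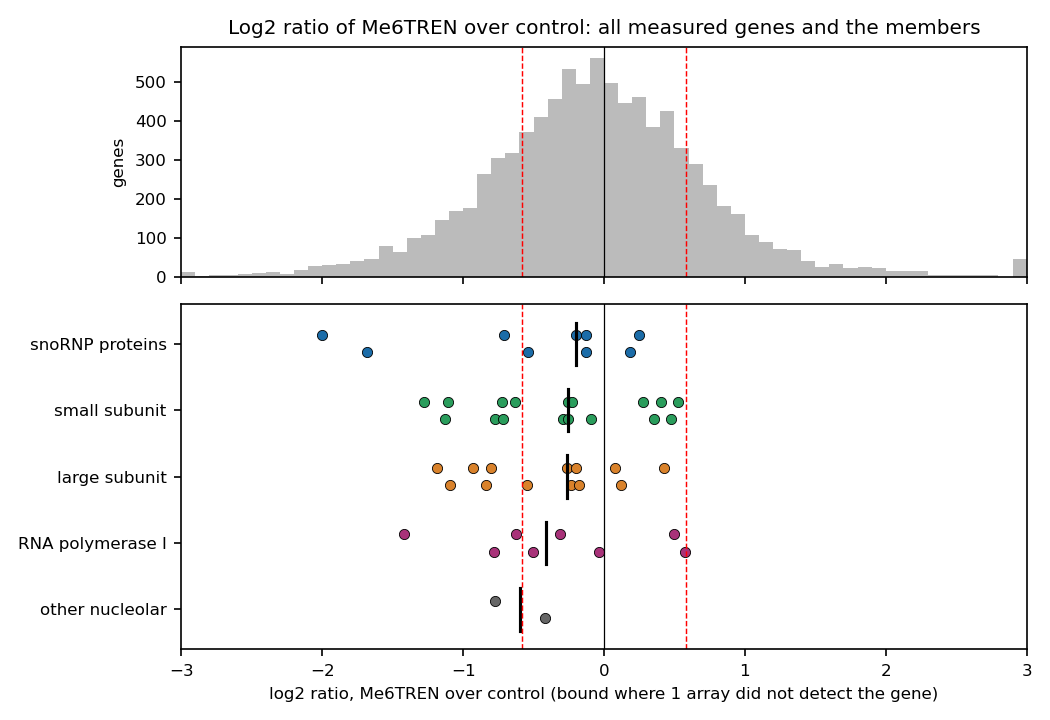
Top, histogram of the log2 ratio of Me6TREN over control for measured genes (genes beyond 3 either way are in the outermost bars, and 526 genes whose bound is 0 are left out); bottom, each measured member as a point by role, with the median of each role as a black bar and 1.5-fold as red dashed lines. No member lies above the upper line, and 19 lie below the lower one, in every role group.

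The snoRNP proteins were led by NOP56, a core protein of the C/D box particles that methylate ribosomal RNA. Its signal was 27137 with PBS and 6097 with Me6TREN, and after normalization it was 4.0-fold lower. By this brightest probe, only 1.18% of measured genes had a lower ratio, whereas 9.94% of measured genes were at least 2-fold lower. The other detected NOP56 probes had signals of 3719 and 1350, and of 6365 and 2400, with log2 ratios of −1.02 and −0.97, against −2.0 for the brightest and −1.33 for the mean of its probes. All NOP56 probes were thus lower on the Me6TREN array, but the size of the difference depended on the probe.

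The partners of NOP56 in the same particle did not share its ratio. NOP58, its paralogue, had signals of 6394 (control) and 4448 (Me6TREN) and a log2 ratio of −0.13. FBL, the methyltransferase fibrillarin, had signals of 17317 and 18193 and a log2 ratio of 0.18. With median centring the ratio of NOP58 turned to 0.17 and that of FBL was 0.79, past 1.5-fold. RRP9, the protein that binds the U3 snoRNA alone, had signals of 744.4 and 342.4. It was detected on the control array only, with a detection p-value of 0.0117 on the Me6TREN array, and was at least 3.21-fold lower. That bound, −1.68 on the log2 scale, was −0.84 without background correction and −1.11 by normexp with an offset of 50.

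In the H/ACA box particles, which convert uridine to pseudouridine, DKC1 stood lowest. DKC1, the catalytic subunit dyskerin, had signals of 11775 (control) and 5851 (Me6TREN) and was 1.64-fold lower, with a log2 ratio of −0.32 with median centring. GAR1, which binds dyskerin and helps release the product, had signals of 7169 and 3760 and a log2 ratio of −0.54, short of 1.5-fold. Its 4 detected probes had log2 ratios from −0.72 to −0.38. NHP2, which binds the guide RNA, had a log2 ratio of −0.20 by its brightest probe, whereas the other 3 detected probes gave 0.19 to 0.23. By the brightest probe it turned to 0.51 with median centring. NOP10, the smallest core protein, had signals of 26097 and 31924 and a log2 ratio of 0.25, which was 1.01 with median centring. NOLC1, a chaperone that carries snoRNPs through the nucleolus and Cajal bodies, had a log2 ratio of −0.12. In all, 3 of the 9 snoRNP proteins were at least 1.5-fold lower, and their ratios ran from −2.0 to 0.25.

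**Figure D2:**
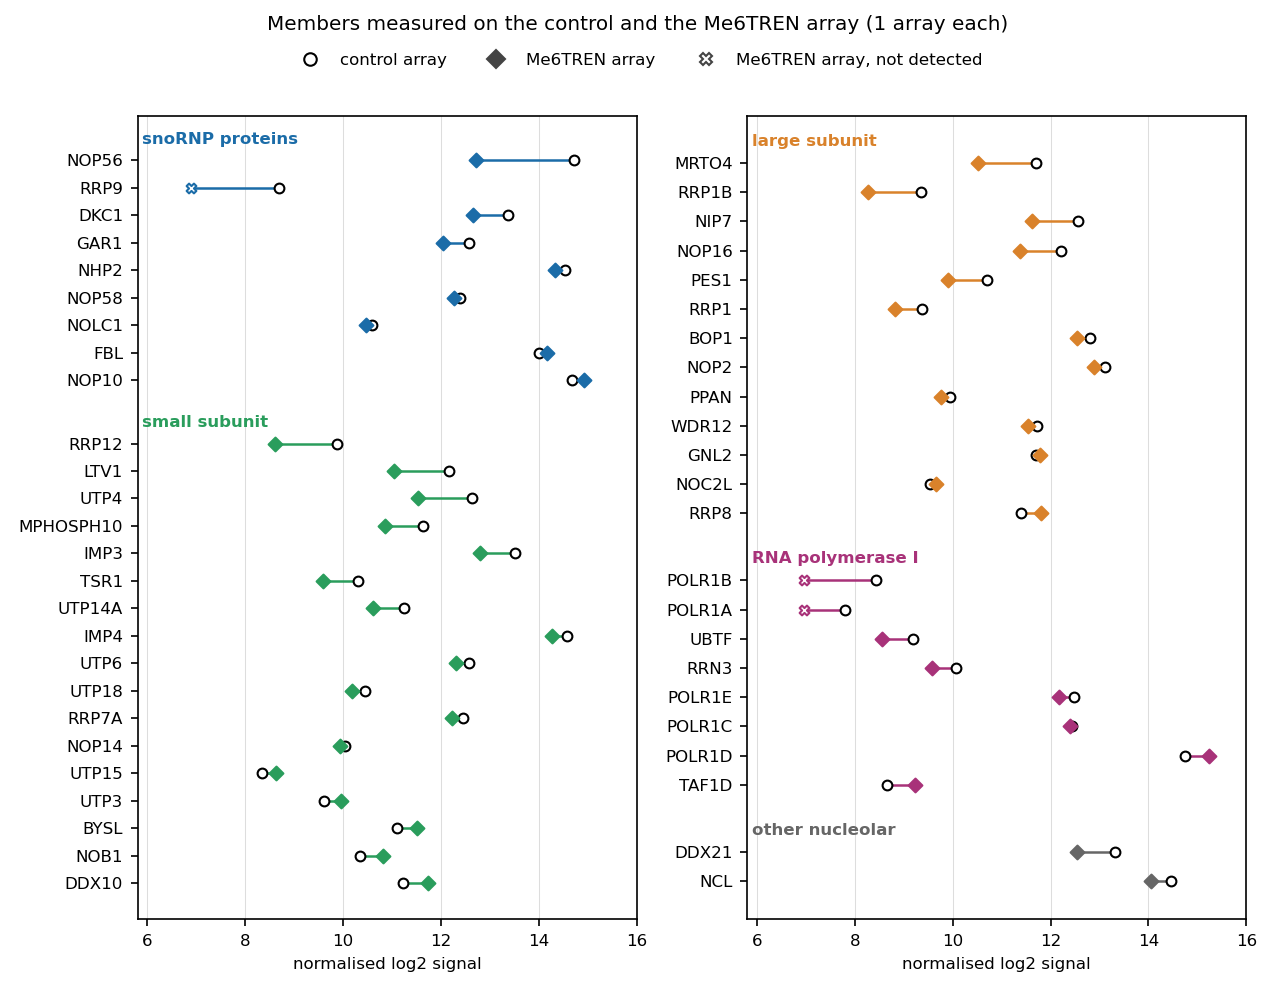
Normalised log2 signal of each measured member on the control array (open circle) and the Me6TREN array (diamond, or an open cross where it was not detected there), by role and ordered by ratio. NOP56 shows the longest line. RRP9, POLR1A and POLR1B missed the detection p-value of 0.01 on the Me6TREN array, each with a detection p-value of 0.0117.

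Among the factors of the small subunit, 7 of the 17 that were measured lay at least 1.5-fold lower, with a median log2 ratio of −0.26. RRP12, a factor for the export of ribosomal precursors, had signals of 1396 (control) and 532.5 (Me6TREN) and was 2.42-fold lower. LTV1, which travels with the immature small subunit to the cytoplasm, had signals of 5531 and 1903 and was 2.19-fold lower. UTP4, a part of the early complex that joins the ribosomal RNA precursor first, had signals of 7415 and 2581 and was 2.15-fold lower. All 3 stayed at least 1.5-fold lower under each of the 10 alternatives.

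The MPP10 complex, which joins the U3 snoRNA to the precursor, was measured in full. MPHOSPH10, its scaffold, had signals of 4020 (control) and 1691 (Me6TREN) and was 1.71-fold lower. IMP3 had signals of 12948 and 6428 and was 1.65-fold lower. IMP4 had signals of 24128 and 19766 and a log2 ratio of −0.29. With median centring, MPHOSPH10 remained past 1.5-fold with a log2 ratio of −0.67, whereas the ratio of IMP3 was −0.32 and that of IMP4 turned to 0.43.

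Of the remaining small subunit factors, TSR1 and UTP14A were lower as well. TSR1, a GTPase-like factor of late small subunit precursors, had signals of 1783 (control) and 817.5 (Me6TREN) and was 1.65-fold lower. UTP14A, which works with an RNA helicase to release U3, had signals of 3141 and 1452 and was 1.55-fold lower, and its other detected probe gave a log2 ratio of −0.79. UTP6, UTP18, RRP7A and NOP14, further parts of the precursor particle, had log2 ratios from −0.26 to −0.09. With median centring these were 0.05, −0.23, 0.07 and −0.08.

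The other 5 members of this group had log2 ratios above 0. NOB1, the enzyme that makes the final cut of the small subunit RNA, had signals of 1822 (control) and 1652 (Me6TREN) and a log2 ratio of 0.48. BYSL had a log2 ratio of 0.41, DDX10, an RNA helicase, 0.53, UTP3 0.35 and UTP15 0.28. Their deposited signals were all lower on the Me6TREN array, so the sign of these ratios comes from the scaling. Each was at or below 0 with median centring over all probes, and all but DDX10, at 0.11, were below 0 with the series matrix values.

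For the large subunit, 5 of the 13 that were measured lay at least 1.5-fold lower and the median log2 ratio was −0.26. MRTO4, which holds the place of the ribosomal stalk proteins during assembly, had signals of 4194 (control) and 1376 (Me6TREN) and was 2.27-fold lower. RRP1B, a nucleolar protein of large subunit precursors, had signals of 1045 and 474.6 and was 2.13-fold lower. Its paralogue RRP1 had signals of 1054 and 580.3 and a log2 ratio of −0.55, short of 1.5-fold. NIP7, a factor of ribosomal RNA processing, had signals of 7034 and 2761 and was 1.91-fold lower. NOP16 had signals of 5690 and 2337 and was 1.79-fold lower, with a log2 ratio of −0.36 by its other probe.

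The PeBoW complex of PES1, BOP1 and WDR12, which is needed for the processing of large subunit RNA, was measured in full. PES1 had signals of 2252 (control) and 964.3 (Me6TREN) and was 1.74-fold lower. BOP1 had signals of 8344 and 5416 and a log2 ratio of −0.26, and WDR12 had signals of 4230 and 2592 and a log2 ratio of −0.18. With median centring the log2 ratios were −0.77 for PES1, 0.07 for BOP1 and −0.05 for WDR12. As in the MPP10 complex, the members of 1 complex fell on both sides of the threshold. MRTO4, RRP1B, NIP7, NOP16 and PES1 stayed at least 1.5-fold lower under each of the 10 alternatives.

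The other members of this group were short of 1.5-fold either way. NOP2, a methyltransferase of large subunit RNA, had a log2 ratio of −0.24, and its 3 detected probes ran from −0.24 to −0.15. The ratio of NOP2 turned to 0.15 with median centring. PPAN had a log2 ratio of −0.19, GNL2, a nucleolar GTPase, 0.08, and NOC2L 0.12. RRP8, another methyltransferase, had signals of 3462 (control) and 3176 (Me6TREN) and a log2 ratio of 0.42, which was −0.10 with median centring over all probes.

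RNA polymerase I and its factors had a median log2 ratio of −0.41, with 3 of 8 measured members at least 1.5-fold lower. POLR1A and POLR1B, the subunits that form the active centre, were detected on the control array only. On the Me6TREN array their brightest probes each had a detection p-value of 0.0117. POLR1B had signals of 654.1 and 346.7 and was at least 2.67-fold lower. The bound, −1.42 on the log2 scale, was −0.68 without background correction and −0.97 averaged over probes. Its second probe, with a control signal of 448.9, gave a bound of −0.51 on the log2 scale. POLR1A had signals of 495.3 and 347.0 and was at least 1.71-fold lower, a call that ended in some alternatives, where the bound came as near to 0 as −0.33 on the log2 scale. These signals lie near the detection limit, and over the 6 members of the group detected on both arrays the median was −0.18 and 1 was lower. Without background correction, and by normexp with an offset of 50, 1 of the 8 was lower.

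The smaller subunits went different ways. POLR1C and POLR1D are shared with RNA polymerase III. POLR1D had signals of 27372 (control) and 41378 (Me6TREN) and a log2 ratio of 0.50. It was 1.51-fold higher by the deposited signals, and past 1.5-fold with median centring over either set of probes (1.32 and 0.64) and with the series matrix values (0.75). Its other probe gave 0.29. POLR1C had a log2 ratio of −0.04 by its brightest probe and −0.60 by the other. By the brightest probe it turned to 0.26 with median centring. POLR1E, which helps the enzyme bind its factors, had signals of 6762 and 4135 and a log2 ratio of −0.32.

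The factors that bring RNA polymerase I to its promoter also differed. UBTF, which binds along the ribosomal DNA, had signals of 952.9 and 525.5 and was 1.54-fold lower, with log2 ratios as near to 0 as −0.42 in the alternatives. Of its other probes 2 were detected on the control array only, with bounds of −0.95 and 0.00 on the log2 scale. RRN3, which makes the enzyme competent to start, had signals of 1556 and 812.0 and a log2 ratio of −0.50. TAF1D, a subunit of the promoter factor SL1, had signals of 727.1 and 689.6 by its brightest probe and a log2 ratio of 0.57, just short of 1.5-fold. A second TAF1D probe, at 295.6 (control) and 558.6 (Me6TREN), was detected with Me6TREN only and gave a bound of 2.08 on the log2 scale.

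Of the other nucleolar proteins, DDX21, an RNA helicase of both ribosomal RNA transcription and processing, had signals of 11302 (control) and 5368 (Me6TREN) and was 1.71-fold lower, with a log2 ratio of −0.39 with median centring. NCL, the abundant nucleolar protein nucleolin, had signals of 22770 and 16296 and a log2 ratio of −0.42. It turned to 0.23 with median centring.

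The 4 larger role groups can be set side by side, although differences between them were not tested. The share of measured members at least 1.5-fold lower was 33.3% for the snoRNP proteins, 41.2% for the small subunit, 38.5% for the large subunit and 37.5% for RNA polymerase I, against 21.9% of all measured genes. The share for RNA polymerase I fell to 12.5% without background correction, against 14.5% of all genes, to 12.5% against 17.2% by normexp with an offset of 50, and to 16.7% against 21.7% among genes detected on both arrays. In these settings the snoRNP proteins lay between 25.0% and 33.3%, the small subunit between 29.4% and 41.2%, and the large subunit at 38.5%. With median centring over probes detected on both arrays, the 4 shares were 22.2%, 29.4%, 38.5% and 25.0%, against 18.2% of all genes. As reported, the median log2 ratios of the groups were −0.20, −0.26, −0.26 and −0.41. Single ratios ran from −2.0 to 0.25, from −1.28 to 0.53, from −1.18 to 0.42 and from −1.42 to 0.57.

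**Figure D3:**
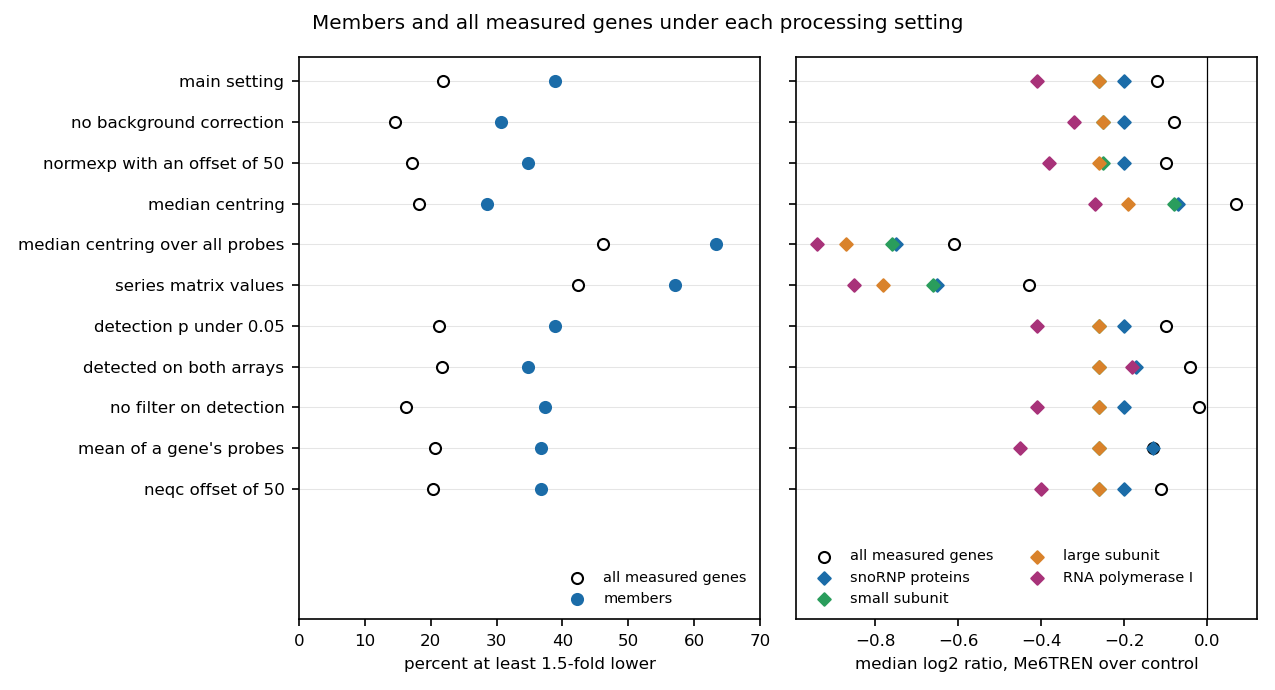
Left, percent of members (filled) and of all measured genes (open) at least 1.5-fold lower under each processing setting; right, median log2 ratio of each role group (diamonds) and of all measured genes (open circles). The members' share is above that of all genes in each setting, from 28.6% against 18.2% to 63.3% against 46.2%, while the median of the snoRNP proteins met that of all genes when a gene's probes were averaged.

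How far 1 probe stands for a gene could be seen in the 16 members with several detected probes. For 12 of them the log2 ratios of the probes lay within 1.5-fold of each other. They differed by more for NOP56 (1.03), POLR1B (0.91), UBTF (0.95) and TAF1D (1.51). For POLR1B, UBTF and TAF1D at least 1 of these values is a bound from a signal near the detection limit. Between 13 and 35 beads stood behind each signal of the brightest probes, and between 10 and 37 behind each signal of all detected probes of the members.

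**Figure D4:**
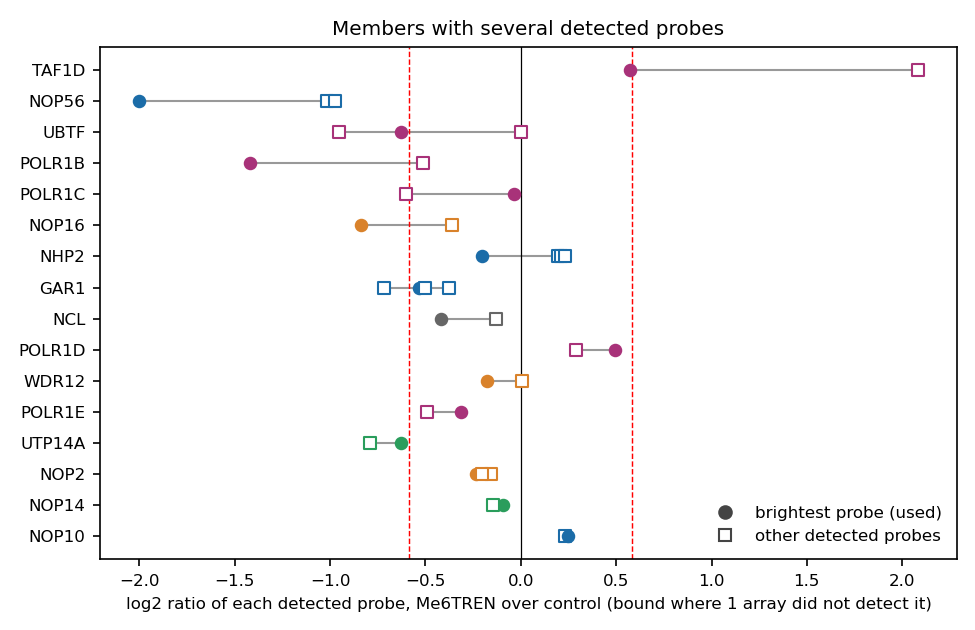
Log2 ratio of each detected probe of the 16 members with several, ordered by the spread between probes; filled circles mark the brightest probe and open squares the others, and red dashed lines mark 1.5-fold. The probes of TAF1D lie farthest apart, and the 3 NOP56 probes all lie below the lower line.

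Further genes of the pathway, which are not members, were summarised from a list of 133, of which 123 were measured. Of these, 36 (29.3%) were at least 1.5-fold lower and 9 (7.3%) at least 1.5-fold higher, with a median log2 ratio of −0.19. Over all measured genes, 21.9% were lower and 16.5% higher, with a median of −0.12. By role, 12 of 37 small subunit factors, 14 of 43 large subunit factors, 5 of 17 genes of RNA polymerase I transcription, 4 of 13 snoRNP assembly factors and 1 of 13 genes of the nuclear RNA exosome, which trims the precursors, were lower. At least 1.5-fold higher were 2, 3, 2, 1 and 1 of them.

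SDAD1, whose yeast counterpart acts in large subunit export, had signals of 5500 (control) and 1103 (Me6TREN) and was 4.04-fold lower. The helicase DDX54 was 3.52-fold and GNL3L, a relative of GNL3, 2.40-fold lower. Of the small subunit factors, WDR36 was 2.96-fold lower, and NOC4L and TBL3, detected on the control array only, were at least 3.53-fold and at least 3.06-fold lower. The log2 ratio of DDX54 and the log2 bounds of NOC4L and TBL3 came as near to 0 as −1.08, −1.08 and −0.80 in the alternatives. DHX33, a helicase of ribosomal RNA transcription, was 2.43-fold lower and POLR1G, a polymerase subunit, at least 1.85-fold lower (a log2 bound that came as near to 0 as −0.39 in the alternatives), while POLR1H, another polymerase subunit, was 1.96-fold higher. NOPCHAP1, which helps load NOP58 onto a chaperone, had signals of 2109 and 3115 and was 2.30-fold higher, whereas the H/ACA assembly factor SHQ1 was 1.90-fold and the C/D assembly factor NUFIP1 at least 1.65-fold lower (as near to 0 as −0.30). EXOSC2 of the exosome was 2.67-fold lower, its nuclease DIS3 1.60-fold higher, and EXOSC4 had a log2 ratio of −0.48.

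MYC, the regulator named above, was itself 2.10-fold lower by its brightest probe, with signals of 10759 (control) and 4097 (Me6TREN). Its other probe gave a log2 ratio of −0.52. Whether the lower MYC signal had a part in the members' ratios was not tested.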

How the data were processed

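The authors deposited mean bead signals, a linear intensity not normalized between arrays, with a detection p-value and a number of beads per probe, per the file headers. They also deposited series matrix intensities, which equal the signal times 0.951 (control) or 1.05 (Me6TREN) plus −228.0 or −269.5, to within 0.013. These have medians of 30.9 and 28.8, a linear scale and no centring on genes. Which software and background step the authors used is not stated in the labels or headers. Biotinylated cRNA came from the Ambion MessageAmp kit, per the labels' protocols.

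Signals were processed with limma 3.58.1 in R 4.3.3 by neqc with an offset of 16, the background being estimated from the detection p-values. Quantile normalization gives both arrays 1 distribution, so it removes any difference in the overall level of signal between them, whatever its source. Of the probes, 30113 had 1 symbol in GEO's platform annotation and 8 had several, and 30074 were matched by Entrez ID to RefSeq (GRCh38.p14). A gene took the values of its brightest probe detected at a p-value under 0.01 on at least 1 array. Where the other array did not detect the gene, the bound was set against its own signal there or the detection limit, whichever was higher. No test was made, since each group has 1 array. The steps were tested on simulated data in which a small part of the probes was changed, as many up as down. Those data held no shift of most genes between arrays, so they did not test the scaling under such a shift. The members, role groups, further pathway genes, thresholds, motifs and the rule for named genes (every member; the 3 largest ratios of each further list; MYC; the markers) were chosen with earlier results of these data known. SNORD3A was named outside that rule.

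In all, 10 alternatives were run. They were no background correction, normexp with an offset of 50, median centring over probes detected on both arrays (a choice of probes made after values were seen), the series matrix values with a floor of 99.9, detection at 0.05, all probes kept whether detected or not, a restriction to genes that both arrays detected, averaging over the probes of a gene, an offset of 50, and, added after seeing the data, median centring over all probes.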

Additional observations from a re-analysis of the deposited data

How the results depend on the processing

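No paired analysis was possible because each group had 1 array. Under the 10 alternatives the median log2 ratio of the members stayed below 0 and below that of all measured genes, from −0.76 to −0.08. The count of members at least 1.5-fold lower stayed within 1.5 times the 19 reported, from 14 to 28, except with median centring over all probes (31). The count at least 1.5-fold higher, 0 as reported, was 4 with median centring (FBL, NOP10, DDX10 and POLR1D), 1 with the series matrix values (POLR1D), 1 with median centring over all probes (POLR1D) and 1 with the mean of a gene's probes (TAF1D). The medians of the large subunit and of the further pathway genes were −0.87 and −0.78 with median centring over all probes. Of the 19 lower members, 12 were at least 1.5-fold lower and all 19 below 0 in every alternative that measured them. DKC1, IMP3, DDX21, TSR1, UTP14A, UBTF and POLR1A fell short of 1.5-fold in at least 1. Of the other 30, 12 passed 1.5-fold lower and 5 passed 1.5-fold higher in at least 1. Signal over background limits RRP9, POLR1A and POLR1B, whose ratios are bounds, and the number of arrays limits the precision of every ratio.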

Other observations

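SNORD3A, a copy of the U3 snoRNA which RRP9 and the C/D box core proteins NOP56, NOP58 and FBL bind, had signals of 1129 (control) and 43962 (Me6TREN) and was 57.1-fold higher. RRP9 was at least 3.21-fold lower on the same arrays, with a log2 bound of −0.84 without background correction, and NOP56 was 4.0-fold lower by its brightest probe, with log2 ratios of −1.02 and −0.97 by the others. U3 copies are nearly identical, so the assignment to SNORD3A is uncertain, and U3 has no poly(A) tail.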
